A study of Mus musculus with 9 samples.

Results

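Kinesins are motor proteins that walk along microtubules. Of the 30142 named genes measured in RNA taken through the lumen of mouse aortas, 39 carry kinesin symbols, among them the pseudogene Kifc5c-ps. They were found by symbol (Kif followed by a number, or Kifc), with the brightest transcript cluster standing for a gene, a transcript cluster being the set of array probes that gives 1 value. Each of the 39 symbols had exactly 1 cluster, so brightness chose nothing. Of 42 symbols that matched, Kif17, Kif1c and Kif27 lay only on clusters that name several genes and were not analysed here. By textbook role, 13 members are mitotic motors, 13 are cargo motors, 5 serve or restrain cilia and 8 have other roles.

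The RNA came from thoracic aortas of 10-week-old female mice, 1 aorta per array, by passing TRIzol through the vessel lumen. The ACDiEKO mice were f/f (homozygous for floxed alleles) at the MEF2 transcription factor genes Mef2a, Mef2c and Mef2d and carried Cdh5-CreERT2(+), a tamoxifen-dependent recombinase under the promoter of the endothelial gene Cdh5. Control littermates carried the same floxed alleles without the recombinase, Cdh5-CreERT2(-), and both groups received 5 daily tamoxifen injections, so an effect of the recombinase itself cannot be told apart from that of the deletion. The sources give harvest as 7 days after the first injection in the series text and 14 days in the sample protocols, which was not settled. There were 4 control and 5 ACDiEKO arrays. ACDiEKO replicates 1 and 2 were nearly identical (robust SD of their difference 0.0707 log2 units, against 0.268 to 0.401 in the 15 other pairs within a group) and were averaged into 1 sample, which left 4 samples per group.

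Cells that leave quiescence and divide assemble a spindle, and a set of kinesins is made for that purpose: some slide microtubules apart, some push chromosomes, some trim microtubule ends and some build the midzone at which the cell is cut. Other kinesins work in cells that do not divide, carrying endosomes, mitochondria, vesicles and receptors outward along microtubules, with adaptors that link motor to cargo. Dynein carries cargo the opposite way.

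All values are deposited log2 values, and differences are ACDiEKO minus control in those log2 units. The table reached 19.34, beyond the 16 log2 units a 16-bit scanner spans, so a scaling step that is not described was applied and no fold changes are given. A gene is said to have risen or fallen where limma's Benjamini-Hochberg adjusted p over all 30142 genes was below 0.05. Levels of different genes are not compared, since probes differ in brightness.

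All 13 mitotic motors rose in the ACDiEKO samples, and in each of them every ACDiEKO sample lay above every control. Over all named genes 3.61% were called higher, 2.92% lower and 6.54% in either direction, and in 6.94% every ACDiEKO sample lay above every control. The 13 differences ran from 0.53 to 3.54 with a median of 1.89, beside a median of -0.026 over all genes. No cargo motor rose and 3 of 13 fell (Kif13a, Kif13b and Kifc2), with a class median of -0.034 that turned to 0.028 under median centring and 0.0062 under quantile normalization. The mitotic and cargo classes were drawn up with earlier results of these data known, so these counts are a description of the members and not an independent test. They also depend on where the class ends: Kif2a and Kif2b, relatives of Kif2c placed among the other members, also act on the spindle. With both counted as mitotic, a choice made after their values were seen, 14 of 15 rose, 0 fell and the median was 1.27. Kif2b differed by -0.24 (adjusted p = 0.171), with both group means below 6.165, the median of the whole table. In RNA from a whole vessel lining, more cells of a kind and more RNA per cell cannot be told apart.

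**Figure D1:**
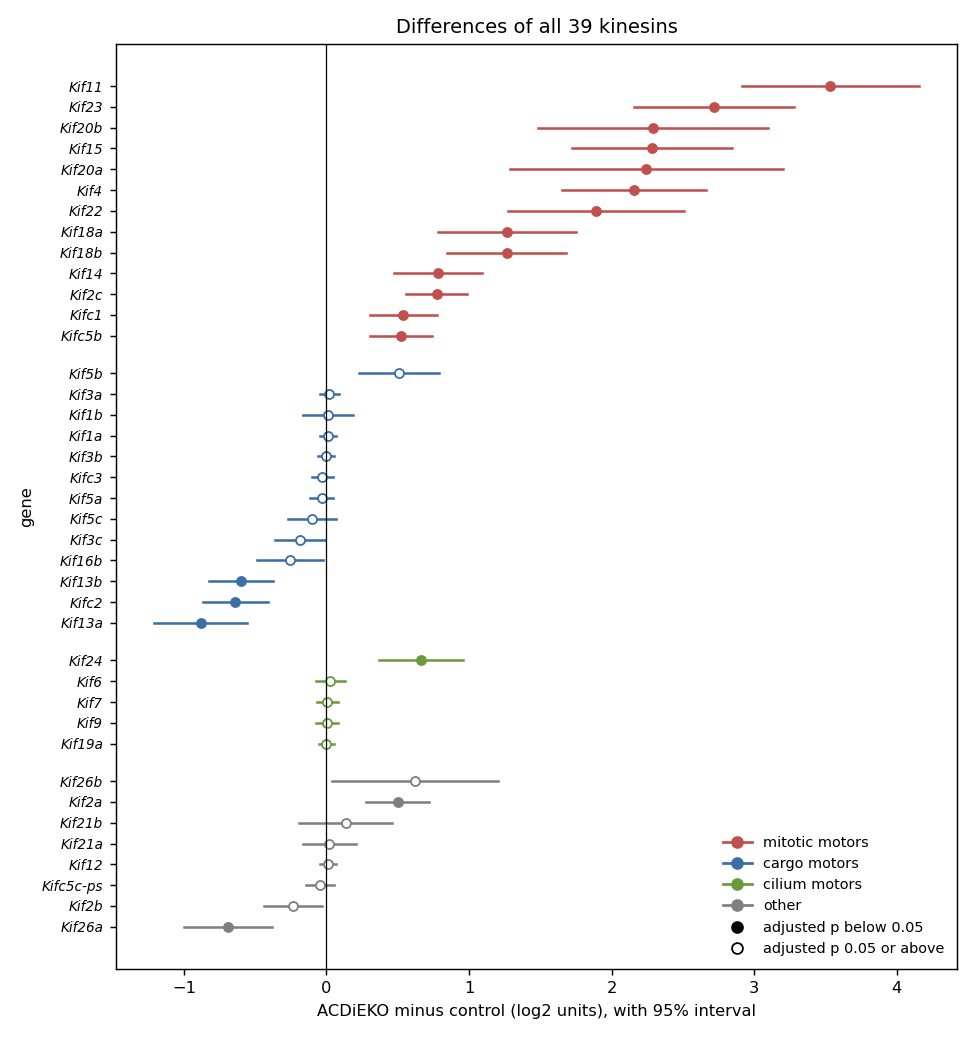
Difference of each of the 39 kinesins (ACDiEKO minus control, log2 units, 4 samples per group) with its 95% interval, ordered by class; filled points passed an adjusted p of 0.05. The mitotic motors lie between 0.53 and 3.54, while the cargo motors lie between -0.88 and 0.51.

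Kif11 (Eg5), the motor that crosslinks antiparallel microtubules and pushes spindle poles apart, had the largest difference of the 39. Control replicates 1 to 4 gave 6.36, 5.75, 6.28 and 6.25, and the ACDiEKO samples gave 9.89 (replicates 1 and 2), 9.96 (replicate 3), 9.99 (replicate 4) and 8.94 (replicate 5). All ACDiEKO samples were far above the controls, with replicate 5 the lowest of them. The difference was 3.54 (SE 0.26, adjusted p = 0.00214). Kif15, which can take over spindle pole separation when Kif11 is blocked, read 6.28, 6.01, 5.94 and 6.15 in controls and 8.55, 8.86, 8.42 and 7.69 in ACDiEKO samples, in the same order. Its groups did not overlap either, and it rose by 2.28 (SE 0.24, adjusted p = 0.00392).

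The promoters of these genes are shown because they share a short element that most other kinesin promoters in the table lack. RefSeq promoter windows (GRCm38.p6, from 250 bases before to 50 after the annotated start) were available for 30 of the 39 members, 12 of them mitotic. They were searched on both strands for the cell cycle genes homology region (CHR, TTTGAA), to which the DREAM and MuvB complexes bind in cell cycle genes, for the CCAAT box bound by NF-Y, for an E2F core (GCGGGAA) and for the MEF2 site. The 80 bases before the start are printed in the direction of transcription. Kif11, Kif15 and Kif22 are shown as the only mitotic motors among those 12 with a CHR in that stretch. Also shown are Kif18a, the mitotic motor among those 12 without a CHR in its window, and the cargo motor with the largest fall (Kif13a). Capitals mark CHR and CCAAT matches, here on the opposite strand and therefore read as TTCAAA and ATTGG. The stretches are chr19:37376302-37376381 for Kif11 (plus strand), chr9:122951001-122951080 for Kif15 (plus), chr7:127042421-127042500 for Kif22 (minus), chr2:109280658-109280737 for Kif18a (plus) and chr13:46929719-46929798 for Kif13a (minus).
Kif11: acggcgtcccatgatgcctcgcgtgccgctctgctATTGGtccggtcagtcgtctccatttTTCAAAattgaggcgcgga
Kif15: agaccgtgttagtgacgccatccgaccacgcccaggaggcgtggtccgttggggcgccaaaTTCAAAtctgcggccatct
Kif22: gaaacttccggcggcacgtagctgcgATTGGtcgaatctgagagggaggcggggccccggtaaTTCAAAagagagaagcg
Kif18a: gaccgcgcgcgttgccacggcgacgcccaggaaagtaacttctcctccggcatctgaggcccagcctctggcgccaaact
Kif13a: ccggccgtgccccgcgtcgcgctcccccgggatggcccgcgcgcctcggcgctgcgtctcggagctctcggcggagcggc

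A CHR match was present in 11 of 12 mitotic windows (91.7%), in 1 of 8 cargo windows (Kif1a), in 0 of 4 cilium windows and in 1 of 6 others (Kif26b), beside 20.2% of 27025 genes with a window. In Kif11 and Kif15 the match nearest the start ends 14 bases before it, and in Kif22 12 bases before it. In Kif4, Kif18b, Kif20b, Kif23, Kifc1 and Kifc5b it lies after the start instead, between bases 2 and 35. In 9 of the 12 mitotic windows a CHR lay within 50 bases of the start, beside 5.72% of all genes; this distance was chosen after the positions were seen. A CCAAT box was present in 8 of 12 mitotic windows, beside 41.1% of all genes, and each of those 8 also held a CHR, a pairing found in 7.97% of all genes. The E2F core searched for, the letters GCGGGAA only, was in 0 of 12 mitotic windows (5.29% of all genes). Other forms of the E2F site were not searched for, so this does not say that the windows lack one. The MEF2 site was in 1 of the 12 (Kif2c), beside 3.7% of all genes. Kifc1 and Kifc5b, near-identical copies, have the same order of a pair of CCAAT boxes and a CHR in their windows, so they are not independent. Without Kifc5b, left out after the positions were seen, a CHR was in 10 of 11 mitotic windows, a CHR within 50 bases of the start in 8 of 11, and a CCAAT box with a CHR in 7 of 11. A match is a stretch of letters and not a measured site, and no match says only that these letters are not in the window.

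**Figure D2:**
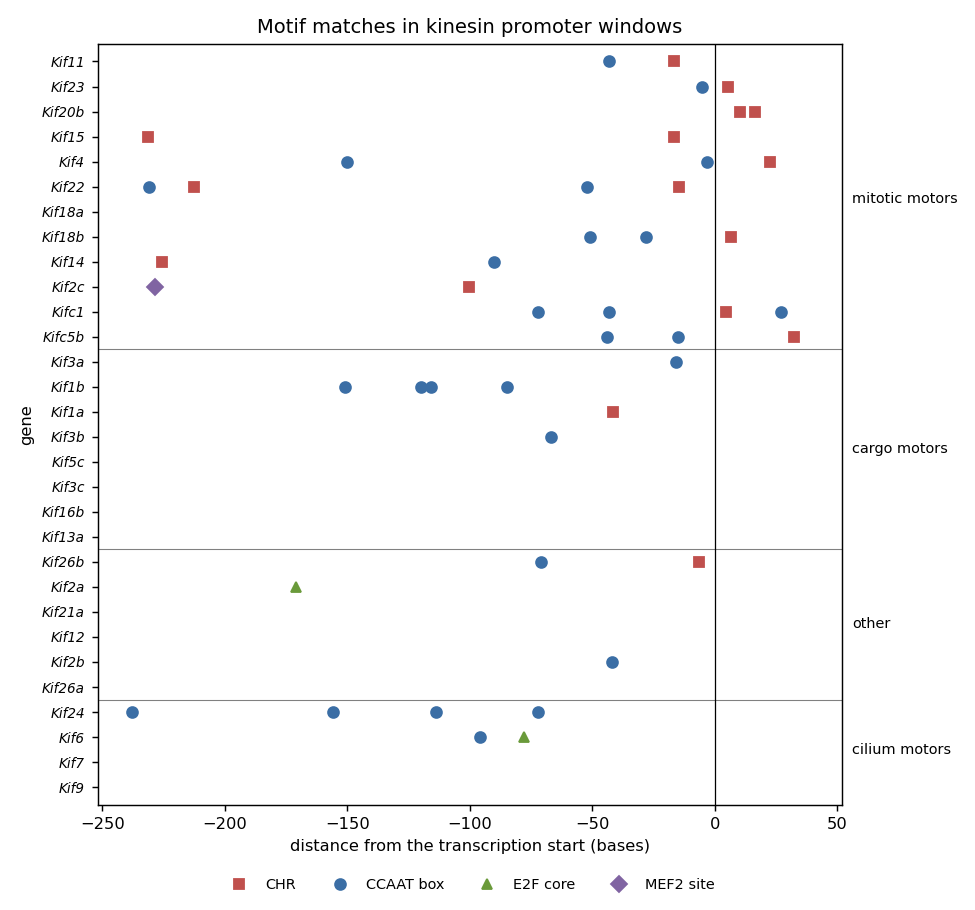
Positions of motif matches (CHR, CCAAT box, E2F core, MEF2 site; either strand) in the 30 kinesin promoter windows, as distance in bases from the annotated transcription start, grouped by class. CHR matches fall within 50 bases of the start in 9 of 12 mitotic windows, 1 of 8 cargo windows (Kif1a) and 1 of 6 other windows (Kif26b). Over all genes with a window the share is 5.72%. Kif5b, Kif13b and Kifc2 are among the cargo motors without a window.

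Kif23, the motor subunit of centralspindlin, which bundles the midzone and recruits the cytokinesis machinery, read 7.34, 7.15, 7.66 and 7.46 in controls and 10.15, 10.56, 10.32 and 9.46 in ACDiEKO samples. The lowest ACDiEKO sample was above the highest control by more than the spread within either group, and the difference was 2.72 (SE 0.24, adjusted p = 0.00247). Kif20b, which acts late in cytokinesis, read 6.49, 6.85, 7.15 and 7.41 in controls and 9.40, 9.82, 9.49 and 8.35 in ACDiEKO samples. Its controls were more spread than those of Kif23, and it rose by 2.29 (SE 0.34, adjusted p = 0.0129).

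Kif20a carries the chromosomal passenger complex from chromosomes to the midzone. It read 6.56, 6.34, 7.48 and 6.10 in controls and 9.14, 9.46, 8.91 and 7.94 in ACDiEKO samples. Control replicate 3 stood well above the other controls and came closest to ACDiEKO replicate 5. Kif20a rose by 2.24 (SE 0.41, adjusted p = 0.0230). That call was lost, at adjusted p from 0.0550 to 0.0721, when control replicates 1, 2 or 4, ACDiEKO replicates 3 or 4, or both near-identical arrays were left out.

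**Figure D3:**
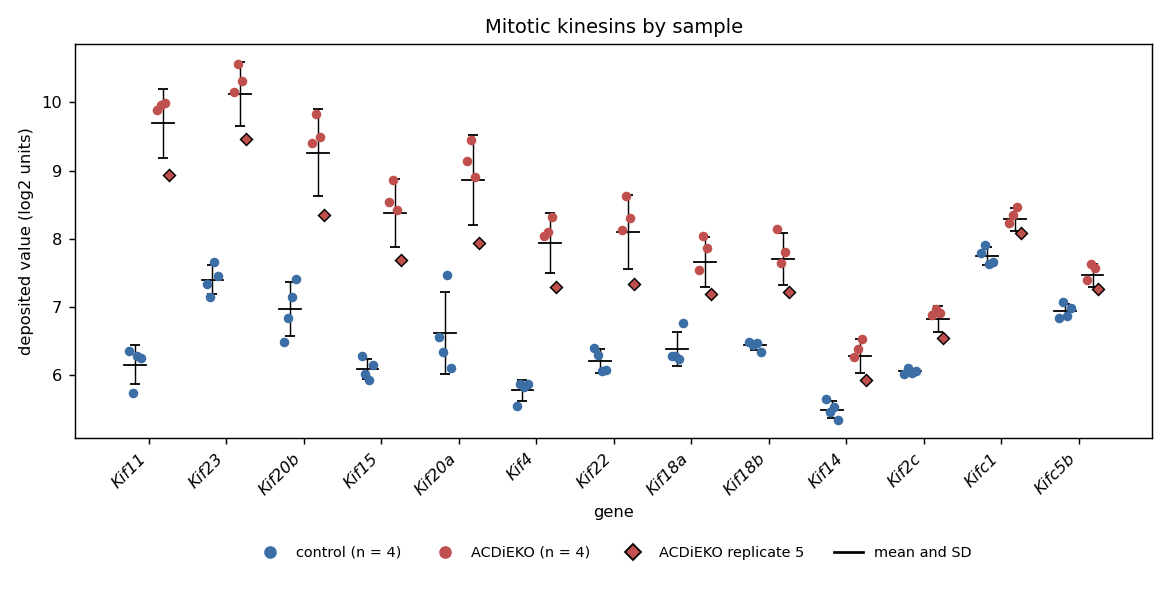
Deposited log2 values of the 13 mitotic kinesins in 4 control samples (blue) and 4 ACDiEKO samples (red), with mean and SD; the diamond is ACDiEKO replicate 5. Every ACDiEKO sample is above every control of its gene, and the diamond is the lowest ACDiEKO sample in 13 of 13 genes.

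The other 8 mitotic motors had smaller differences. The chromosome-borne motors Kif4, which also works at the midzone with Prc1, and Kif22, which pushes chromosome arms toward the spindle equator, rose by 2.16 (adjusted p = 0.00345) and 1.89 (adjusted p = 0.010). Kif18a, which damps chromosome movements at the plate, rose by 1.27 (adjusted p = 0.0166), and Kif18b, which shortens astral microtubules, by 1.26 (adjusted p = 0.0102). Kif14, a partner of citron kinase in cytokinesis, rose by 0.78 (adjusted p = 0.0188), and Kif2c (MCAK), which corrects wrong attachments by taking apart microtubule ends, by 0.77 (adjusted p = 0.00630). The smallest rises were in Kifc1 (HSET), which focuses spindle poles by moving toward microtubule minus ends, by 0.54 (adjusted p = 0.0241), and in Kifc5b, by 0.53 (adjusted p = 0.0210). Kifc5b is a near-identical copy of Kifc1, so probes may not tell them apart and both values are uncertain.

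For Kif11, Kif15, Kif4, Kif14 and Kif2c the control mean lay below 6.165, the median of every value deposited, and Kif4, Kif14 and Kif2c had no control sample above it. That median is not a measured background, but differences of genes this dim in controls may be understated. When each sample was left out in turn, 8 of 13 mitotic motors were called in all 8 refits (Kif11, Kif23, Kif20b, Kif15, Kif4, Kif22, Kif18b and Kif2c), and the number called ran from 9 to 13. Besides Kif20a, the call of Kif18a was lost without control replicate 3 or ACDiEKO replicate 4 (adjusted p = 0.0505 and 0.0561). That of Kif14 was lost without control replicates 2, 3 or 4 or both near-identical arrays (0.0518 to 0.0560). That of Kifc1 was lost without control replicates 1, 3 or 4, ACDiEKO replicates 3 or 4, or both near-identical arrays (0.0529 to 0.0715). That of Kifc5b was lost without control replicates 1, 3 or 4, ACDiEKO replicate 4 or both near-identical arrays (0.0521 to 0.0665).

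ACDiEKO replicate 5 was the lowest of its group in 13 of 13 mitotic motors, whereas it was the lowest in 53.4% of the 1089 genes called higher. It still lay above the highest control in all 13. Its gap to the mean of the other ACDiEKO samples ran from 0.26 to 1.23, with a median of 0.86. Averaged over the class, the controls lay between 6.43 and 6.55, and the ACDiEKO samples at 8.29, 8.49, 8.38 and 7.64. The same sample had the highest mean of 9 leukocyte markers, 9.38 against 6.63 to 7.47 in the other 7 samples. Its fibroblast, mesothelial and platelet marker means were also the highest (8.96, 8.43 and 8.27), by little for fibroblast (8.93 in control replicate 4). The part of these in the kinesin values was not tested. Without replicate 5 all 13 mitotic motors were called, with differences from 0.59 to 3.79.

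**Figure D4:**
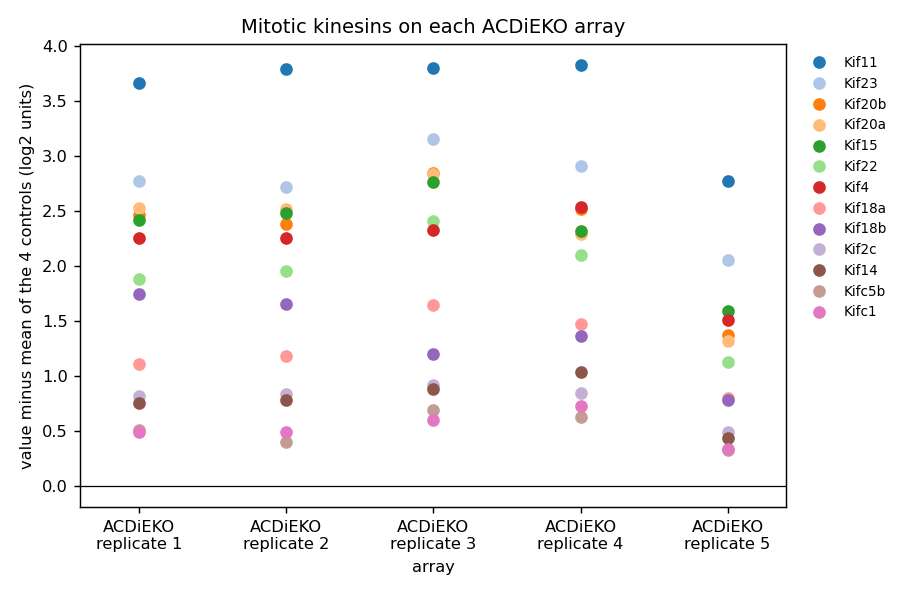
Value of each mitotic kinesin on each of the 5 ACDiEKO arrays minus the mean of the 4 controls (log2 units), before replicates 1 and 2 were averaged. Every point is above 0, replicates 1 and 2 nearly coincide, and replicate 5 is the lowest array for every gene.

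Mki67, which marks dividing cells, was read beside the motors. It was 8.26, 8.02, 8.27 and 7.68 in controls and 13.88, 13.99, 13.98 and 13.12 in ACDiEKO samples, a difference of 5.68 (adjusted p = 0.000911). ACDiEKO replicate 5 was again the lowest of its group. The targeted genes Mef2a, Mef2c and Mef2d differed by 0.12, 0.058 and 0.23 and did not pass (adjusted p = 0.493, 0.663 and 0.144), but clusters that span a whole transcript do not check a deletion of some exons.

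The spindle proteins that mitotic kinesins work with were read from a list of 20, of which Ccnb1 could not be read from a cluster of its own. Of the 19 tested, 18 rose and 0 fell, beside 3.61% and 2.92% of all named genes, with a median of 1.67. Prc1, which bundles midzone microtubules and receives Kif4 there, rose by 3.49 (adjusted p = 0.00187). Tpx2, which targets Kif15 and Aurora A to the spindle, rose by 3.03 (adjusted p = 0.00239), and Hmmr, a spindle assembly factor, rose by 2.88 (adjusted p = 0.00245). Racgap1, the centralspindlin partner of Kif23, rose by 1.63, and Cit, the citron kinase, rose by 0.93. Cenpe, a kinesin of the kinetochore whose symbol falls outside the Kif pattern, rose by 1.66 (adjusted p = 0.00833). Numa1, which anchors dynein at spindle poles and is also a nuclear protein of cells that do not divide, differed by -0.082 (adjusted p = 0.71). These proteins belong to a cell cycle pattern of these samples that was already known when the list was drawn up.

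Among cargo motors the largest fall was in Kif13a, which moves recycling endosomes and other vesicles to the cell periphery. It read 9.38, 9.27, 9.87 and 9.72 in controls and 8.67, 8.69, 8.54 and 8.80 in ACDiEKO samples. Every ACDiEKO sample was below every control, as in 7.47% of all genes, and the controls were the more spread group. Kif13a fell by 0.88 (SE 0.14, adjusted p = 0.0153), and the call was lost without ACDiEKO replicate 4 (difference -0.84, adjusted p = 0.0526).

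Its close relative Kif13b takes part in returning the VEGF receptor VEGFR2 to the endothelial surface. It read 9.64, 9.50, 9.70 and 9.35 in controls and 8.91, 9.06, 8.78 and 9.03 in ACDiEKO samples. The groups did not overlap, and Kif13b fell by 0.60 (SE 0.095, adjusted p = 0.0153). Kifc2, a minus-end-directed motor best known from neurons, read 7.18, 7.14, 7.19 and 7.00 in controls and 6.57, 6.51, 6.22 and 6.65 in ACDiEKO samples. It fell by 0.64 (SE 0.097, adjusted p = 0.0132), and both it and Kif13b were called in all 8 refits without a sample.

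Kif5b is the widely expressed heavy chain of conventional kinesin, which carries mitochondria, vesicles and RNA granules. It read 12.82, 12.58, 12.86 and 12.63 in controls and 13.46, 13.05, 13.38 and 13.04 in ACDiEKO samples. It was the only cargo motor whose ACDiEKO samples all lay above the controls, as in 6.94% of all named genes. Its difference of 0.51 (95% interval 0.23 to 0.79) missed the threshold at adjusted p = 0.0539. It passed when genes with fewer than 4 arrays above the table median were left out of the adjustment (adjusted p = 0.0274; 8.92% of the genes kept were called higher and 7.33% lower), and under median centring (0.0398) and quantile normalization (0.0353). The other heavy chains differed by -0.034 (Kif5a) and -0.10 (Kif5c), with adjusted p = 0.607 and 0.442.

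**Figure D5:**
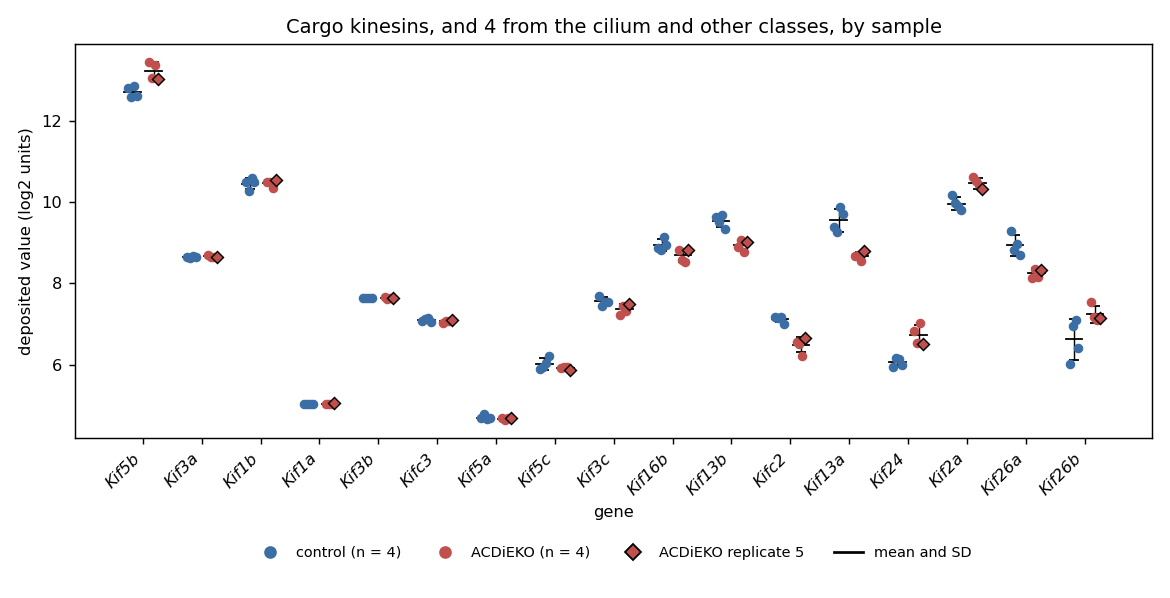
Deposited log2 values of the 13 cargo kinesins and of Kif24, Kif2a, Kif26a and Kif26b in 4 control (blue) and 4 ACDiEKO samples (red), with mean and SD; the diamond is ACDiEKO replicate 5. Groups separate downward in Kif13a, Kif13b, Kifc2 and Kif26a and upward in Kif5b, Kif24 and Kif2a, and overlap in the other 10. Over all named genes 7.47% separate downward and 6.94% upward. Kif24, Kif2a and Kif26a are shown because they were called.

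The remaining cargo motors overlapped between groups. Kif16b, which pulls early endosomes, read 8.87, 8.82, 9.15 and 8.94 in controls and 8.82, 8.59, 8.53 and 8.82 in ACDiEKO samples, a difference of -0.26 (95% interval -0.49 to -0.025, adjusted p = 0.184). Kif1b, a carrier of mitochondria and synaptic vesicle precursors, read 10.49, 10.27, 10.59 and 10.49 in controls and 10.49, 10.49, 10.36 and 10.55 in ACDiEKO samples, a difference of 0.012 (95% interval -0.16 to 0.19). Kif3a, a subunit of the heterotrimeric kinesin that also builds cilia, read 8.64, 8.62, 8.67 and 8.65 in controls and 8.71, 8.65, 8.65 and 8.65 in ACDiEKO samples. Its difference was 0.021 (95% interval -0.044 to 0.086). The other heterotrimer subunits differed by -0.0021 (Kif3b) and by -0.18 (Kif3c, adjusted p = 0.208). Kif1a and Kifc3 differed by 0.0083 and -0.029.

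Some of these narrow intervals come with repeated values. Of the 39 members, 16 had an identical deposited value on at least 3 of 9 arrays: 8 of 13 cargo, 4 of 5 cilium and 4 of 8 other members, and 0 of 13 mitotic motors, beside 41.9% of all named genes. Kif19a had the same value, 5.38, on all 9. In 11 members, 3 of them cargo motors and none mitotic, both group means lay below the table's median of 6.165, so a difference in them may not have been measurable.

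The adaptors and subunits that connect cargo motors to their loads were tested for 16 of 20 listed symbols (Kif1bp is an older name of Kifbp), of which 0 rose and 1 fell, with a median of -0.058. Rhot2, a mitochondrial receptor for the motor adaptors, fell by 0.41 (adjusted p = 0.0406). Mapk8ip3, an adaptor of conventional kinesin and dynein, differed by -0.35 (adjusted p = 0.109), and the light chain Klc4 by -0.22 (adjusted p = 0.166). Of 20 dynein and dynactin genes, 1 rose, 0 fell, and the median was -0.021. The riser was Nde1, a dynein regulator that also acts at kinetochores and is needed for progenitor divisions, by 0.80 (adjusted p = 0.0162). Dctn2 and Dctn4, subunits of the dynein activator dynactin, differed by 0.081 and -0.17 without passing. The single call in each of the adaptor and dynein lists is near the share over all named genes (3.61% higher, 2.92% lower).

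The tubulins, of which the tracks are made, rose in 5 of 12 cases and fell in 0, with a median of 0.57. Over all named genes 3.61% were called higher. Tubg1, the gamma-tubulin that seeds microtubules, rose by 1.03 (adjusted p = 0.00247). Tuba1a and Tubb6, an alpha and a beta chain, rose by 1.04 (adjusted p = 0.0212) and 1.87 (adjusted p = 0.0213). Tubulin genes have close copies, so their values are less certain.

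Among the 5 cilium members 1 rose, beside 3.61% of all named genes. This was Kif24, a centriolar kinesin that keeps cycling cells from growing a cilium. It read 5.95, 6.17, 6.15 and 5.98 in controls and 6.83, 6.53, 7.02 and 6.52 in ACDiEKO samples, a difference of 0.67 (SE 0.13, adjusted p = 0.0257). The groups did not overlap, but the call was lost when any of control replicates 1 to 4, or both near-identical arrays, were left out (0.0539 to 0.0762). Kif6, Kif7, Kif9 and Kif19a differed by 0.027, 0.0057, 0.0042 and 0.

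Of the 8 other members 1 rose and 1 fell, beside 3.61% and 2.92% of all named genes. Kif2a, a relative of Kif2c that takes apart microtubule ends at spindle poles and in neurons, read 10.17, 9.99, 9.90 and 9.82 in controls and 10.62, 10.53, 10.42 and 10.31 in ACDiEKO samples. It rose by 0.50 (SE 0.094, adjusted p = 0.0255), and the call was lost without control replicates 2, 3 or 4, ACDiEKO replicates 3 or 4, or both near-identical arrays (0.0630 to 0.0705). Kif26a, an atypical member that binds microtubules without walking, read 9.28, 8.81, 8.98 and 8.69 in controls and 8.13, 8.37, 8.16 and 8.34 in ACDiEKO samples. It fell by 0.69 (SE 0.13, adjusted p = 0.0262), and that call was lost without control replicates 2 or 3, ACDiEKO replicates 3, 4 or 5, or both near-identical arrays (0.0506 to 0.0832).

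Kif26b, its relative in Wnt5a and Ror signalling, read 6.02, 6.95, 7.11 and 6.42 in controls and 7.56, 7.17, 7.11 and 7.14 in ACDiEKO samples. Control replicate 3 and ACDiEKO replicate 4 had the same value, and the difference of 0.62 (95% interval 0.036 to 1.201) did not pass (adjusted p = 0.201). Kif2b, Kif12, Kif21a, Kif21b and the pseudogene Kifc5c-ps ranged from -0.24 to 0.14 and did not pass. In all, 15 kinesins rose, 4 fell and 20 did not pass. The total of 19 called fell to 12 without control replicate 3, without ACDiEKO replicate 4 and without both near-identical arrays.

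Cell type markers were read in the same fit, in which 3.61% of all named genes were called higher and 2.92% lower. Of 9 endothelial markers 1 rose (Emcn) and 2 fell (Pecam1 and Tek), with a mean of 13.17 to 13.70 over all samples. The other 6 did not pass, among them Kdr (difference 0.96, adjusted p = 0.0733, groups not overlapping). Of 7 fibroblast markers 0 rose and 1 fell (Pi16). No leukocyte, erythroid, adipocyte, mesothelial or platelet marker was called, though the groups did not overlap in the leukocyte marker Cd68 (difference 0.81, adjusted p = 0.184). List means over all samples ran from 7.01 to 10.24 for adipocyte, 5.95 to 8.43 for mesothelial and 8.13 to 8.96 for fibroblast markers. Of 9 neuron and Schwann cell markers 1 rose (Uchl1, difference 1.08) and 1 fell (Stmn2, difference -2.74, adjusted p = 0.00268). The other 7 did not pass, among them S100b (difference -1.22, adjusted p = 0.0700, groups not overlapping). The mean of the 9 ran from 6.86 to 6.93 over controls and from 6.48 to 6.68 over ACDiEKO samples. The part of all these markers in the kinesin values, those of Kifc2 included, was not tested. Of 10 smooth muscle markers 5 rose (Acta2, Tagln, Myl9, Smtn and Synpo2), and the mean of the 10 ran from 8.54 to 9.62 over controls and from 10.03 to 11.05 over ACDiEKO samples. The other 5 did not pass: Lmod1 differed by 0.98 (adjusted p = 0.0841, groups not overlapping), Mylk by 0.43, Des by 0.0030, Myh11 by -0.043 and Cnn1 by -0.27 (adjusted p from 0.191 to 0.998). With the smooth muscle mean as a covariate no gene was called (2003 had an unadjusted p below 0.05, limma). All 13 mitotic motors still differed upward, by 0.29 to 3.26, with 10 of 13 at an unadjusted p below 0.05. The groups do not overlap in this mean, so it cannot be told apart from group. Sample titles also open with a number after the letter F, taken as the animal's. ACDiEKO arrays and control replicates 1 and 2 share a run of these animal numbers, while control replicates 3 and 4 come from a lower run. Without those 2 controls all 13 mitotic motors were higher, by 0.44 to 3.64, and 2 were called (Kif11, adjusted p = 0.0452, and Kif23, adjusted p = 0.0463), beside 301 of all genes. With the run as a term 8 were called, beside 1022 of all genes.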

How the data were processed

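Mouse Clariom D arrays (9, each 1 aorta) were hybridised with 5 ng RNA amplified by WT Pico, per the labels. The authors deposited log2 values made with RMA, per the submitters' processing notes, with 1 value per transcript cluster. The version, genome build and annotation are not given in the sources used here. Array medians ran from 6.03 to 6.11 in controls and from 5.99 to 6.03 in ACDiEKO arrays, and the number of arrays limits the precision.

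The table's 72688 features include 6732 array controls, not used here. Of 65956 clusters, 30604 name 1 symbol and 2146 several; 827 symbols were updated through the RefSeq table. The brightest cluster per symbol gave 30142 genes, tested without a filter by limma 3.58.1 in R 4.3.3 (lmFit, eBayes; two-sided, Benjamini-Hochberg). The steps were tested on simulated data. That the samples come from separate mice is stated, and on that statement p-values measure the spread between mice. Whether it holds for the near-identical ACDiEKO arrays, which were averaged into 1 sample, was not settled.

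The members, classes and lists were chosen with earlier results of these data known. By rule, the text gives every sample for mitotic and cargo members with the 5 largest differences, the 5 brightest cargo members, Kif3a, Kif26b and called members outside the mitotic class, and the 3 partners of smallest p per list; Racgap1, Cit, Cenpe, Numa1 and the marker genes were named after their values were seen. The second control titled number 3 is called replicate 4. Alternatives were other filters, thresholds, normalizations, blocks, covariates and leaving out samples.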

Additional observations from a re-analysis of the deposited data

Results flagged for a closer look

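A sample far from the rest of its group of 4 was looked for in 73 groups (a kinesin in control or in ACDiEKO samples), and 19 were found; chance gives about 1 in 20, or 3.6. In 11 of the 19 the other 3 samples share 1 deposited value, so any departure counts. Those were Kif12 in ACDiEKO replicate 4 (5.54, others 5.51), Kif1a in ACDiEKO replicate 5 (5.05, others 5.02), Kif21a in ACDiEKO replicate 3 (5.89, others 5.95), Kif3a in the mean of ACDiEKO replicates 1 and 2 (8.71, others 8.65) and Kif3b in control replicate 2 (7.64, others 7.65). The same held for Kif5a in ACDiEKO replicate 3 (4.63, others 4.67), Kif6 in control replicate 3 (5.80, others 5.88), Kif7 in control replicate 2 (6.22) and ACDiEKO replicate 5 (6.25; others 6.17 in both), Kif9 in control replicate 2 (5.05, others 5.12) and Kifc5c-ps in ACDiEKO replicate 5 (4.58, others 4.63).

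In the other 8 the remaining samples differed among themselves. Kif11 was low in control replicate 2 (5.75, others 6.25 to 6.36) and in ACDiEKO replicate 5 (8.94, others 9.89 to 9.99). Kif4 was low in control replicate 1 (5.56, others 5.82 to 5.88), while Kif18a was high in control replicate 4 (6.76, others 6.24 to 6.29). Kif21b was high in ACDiEKO replicate 5 (6.06, others 5.45 to 5.48), though still below the table's median of 6.165. Kif26b was high in the mean of ACDiEKO replicates 1 and 2 (7.56, others 7.11 to 7.17), Kif9 low in ACDiEKO replicate 5 (5.06, others 5.12 to 5.14) and Kifc5c-ps high in control replicate 2 (4.77, others 4.62 to 4.63). Of the 19, 6 were ACDiEKO replicate 5.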

How the results depend on the processing

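All 19 called kinesins kept their direction in every setting in which they were tested, and 0 reversed. In all 19 the groups do not overlap, so leaving out samples could not have reversed a direction. Over the single kinesins, 726 values stayed on their side of the threshold, 90 lost their call and 5 gained it (all Kif5b). The mitotic count of 13 became 5 with a filter at the 75th percentile (8.417), which tests 5 of them, 8 with a term for the animal-number run, 2 without the 2 controls of lower animal numbers, 0 with the smooth muscle covariate and 5 at a threshold of 0.01. The mitotic median became 2.29 with the 75th percentile filter and, in an alternative chosen after seeing the data, 1.27 with Kif2a and Kif2b in the class, of which 14 were called. The 5 mitotic motors kept by the 75th percentile filter (Kif11, Kif23, Kif20b, Kif15 and Kif20a) had every control below 8.417. They passed it only through their high ACDiEKO arrays, so their calls and the higher median follow from the filter and add no support. The 3 falls among cargo motors became 1 without those 2 controls, 0 with the covariate and 0 at a threshold of 0.01. Kif5b made 1 cargo motor higher under both filters, median centring, quantile normalization, all 9 arrays as samples and a threshold of 0.1. The cargo median of -0.034 became -0.11 with the filter at the table median and -0.12 at the 75th percentile, 0.028 with median centring and 0.0062 with quantile normalization. The 19 kinesins called became 10 with the 75th percentile filter, 10 with the run term, 3 without the 2 controls, 0 with the covariate, 12 without both near-identical arrays and 5 at 0.01. The 1970 genes called became 1022 (run term), 301 (without the 2 controls), 0 (covariate), 3050 (9 arrays), 996 (without both near-identical arrays), 470 (threshold 0.01) and 3232 (threshold 0.1). Leaving out a replicate gave 854 to 1937 genes, 12 to 19 kinesins, 9 to 13 mitotic motors and 2 to 3 falls among cargo motors. Fewer samples, fewer genes tested or a stricter threshold enter by construction into several of these; other causes were not tested. Median centring called 1478 genes higher and 722 lower, and quantile normalization 1576 and 773, against 1089 and 881.

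The replicate numbers in the titles were also fitted as a replicate block on the 9 arrays. It called 11 mitotic motors (median difference 2.09), 2 cargo motors lower, 14 kinesins and 1540 genes, and lost Kif13b (adjusted p = 0.0769), Kifc1 (0.0596), Kifc5b (0.0714), Kif24 (0.0556) and Kif26a (0.0971). Same-numbered arrays did not deviate together (correlations from -0.0796 to 0.0238 over 4 pairs), so the numbers were not taken as a pairing.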
